A study of Mus musculus with 6 samples.

Results

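A group of 10 genes of the haploid male germ cell were read across the RNA-seq libraries of epididymal white adipose tissue (eWAT): Tnp1, Tnp2, Prm1, Prm2, Akap4, Odf1, Odf2, Smcp, Ldhc and Pgk2. They are 10 of the 28529 genes in the deposited count table, were matched by symbol, and had been selected on their raw counts in these 6 libraries, which were already known. Their levels and the differences between genotypes are therefore given as a description, without a test. The study asked how fat and other tissues respond to loss of MAF1, a repressor of RNA polymerase III. The mice were males of 22 to 24 weeks, of strain C57BL/6 by the strain label (the growth protocol gives C57Bl6/J for wild-type), that ate breeder chow and were fasted overnight before the fat was frozen. The Maf1-/- group held 3 mice, a whole-body knockout made by targeting embryonic stem cells, and the wild-type group held 3 mice. Each mouse gave 1 library, named here KO1, KO2 and KO3 for Maf1-/- and WT1, WT2 and WT3 for wild-type.

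Spermatids are the cells that follow meiosis in the testis. They exchange histones for transition proteins and then for protamines, which packs the sperm nucleus tightly, and they build an acrosome and a flagellum. Many of their messenger RNAs are made early, stored, and translated only later, and several of their enzymes are testis-specific copies of enzymes used elsewhere. The epididymal fat pad lies against the epididymis and the testis, and adipocytes are not known as a site of protamine or transition protein synthesis.

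The genes of this group were all but missing from 1 library of each genotype and were present in the other 4. Leaving out Odf2, which also encodes a centrosomal protein of other cells, the other 9 genes together gave 8 counts in KO1, 1450 in KO2 and 1493 in KO3, whereas WT1 had 85, WT2 14907 and WT3 1534. In CPM, the count scaled to the library's total, this came to 0.653, 201 and 114 in Maf1-/- fat, against 7.08, 933 and 122 in wild-type fat. WT2 stood highest for each of the 10 genes, and no gene separated the genotypes. The spread within a genotype was as large as its mean or nearly so: the summed CPM averaged 105 ± 101 in Maf1-/- and 354 ± 505 in wild-type mice (SD, n = 3 each). In bulk tissue, fewer cells of a type and less RNA per cell cannot be told apart.

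The coding sequences of Prm1 and Tnp1 are shown because they show what sets these proteins apart. They were read from the reference of the files' build (mm9, GENCODE), 5′ to 3′, with arginine codons in capitals. Prm1 lies at chr16:10796419-10796979 and Tnp1 at chr1:73061657-73062473, both on the minus strand.
Prm1: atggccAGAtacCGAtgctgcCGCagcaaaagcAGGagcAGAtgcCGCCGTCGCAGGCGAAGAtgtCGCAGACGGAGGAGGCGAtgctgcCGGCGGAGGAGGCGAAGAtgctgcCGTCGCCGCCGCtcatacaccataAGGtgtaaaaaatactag
Tnp1: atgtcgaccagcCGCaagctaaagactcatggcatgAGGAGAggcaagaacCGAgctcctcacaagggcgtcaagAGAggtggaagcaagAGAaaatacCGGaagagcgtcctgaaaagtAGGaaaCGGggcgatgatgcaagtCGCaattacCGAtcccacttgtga
Of the 51 codons of Prm1, 28 encode arginine (54.9%), the highest share among 21734 protein-coding genes, whose median was 5.38%. Tnp1 has 11 arginine codons of 55 (20.0%) and a further 10 lysine codons. Prm2 has 38 arginine codons of 107 (35.5%). In Smcp, the protein of the sperm mitochondrial capsule, 32 of 143 codons encode cysteine (22.4%, against a median of 2.14%).

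Promoters are shown because these genes shared much of their order across libraries. The windows come from RefSeq on GRCm38.p6 and run from 250 bases before to 50 bases after the start. A window was found for 9 of the 10 genes, while Odf1 had none in the table. Capitals mark the half-site pair TGANNTCA, which reads the same on both strands. It was chosen after the sequences had been seen, as a relaxed form of TGACGTCA, the element bound by CREB and CREM, of which CREM is the activator of many spermatid genes.
Tnp1 (chr1:73015850-73016149, minus strand): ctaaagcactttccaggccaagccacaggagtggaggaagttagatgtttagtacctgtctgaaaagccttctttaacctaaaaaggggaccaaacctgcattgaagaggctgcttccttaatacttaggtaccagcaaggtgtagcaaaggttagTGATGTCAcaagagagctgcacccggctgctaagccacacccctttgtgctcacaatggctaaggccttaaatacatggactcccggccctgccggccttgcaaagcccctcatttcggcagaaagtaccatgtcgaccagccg
Prm1 (chr16:10796774-10797073, minus strand): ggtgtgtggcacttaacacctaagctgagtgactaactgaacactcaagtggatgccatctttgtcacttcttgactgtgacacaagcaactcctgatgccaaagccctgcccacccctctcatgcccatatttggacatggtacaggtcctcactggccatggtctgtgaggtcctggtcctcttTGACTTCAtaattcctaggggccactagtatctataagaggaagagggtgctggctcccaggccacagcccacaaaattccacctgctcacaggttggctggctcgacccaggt
Akap4 (chrX:7067265-7067564, plus strand): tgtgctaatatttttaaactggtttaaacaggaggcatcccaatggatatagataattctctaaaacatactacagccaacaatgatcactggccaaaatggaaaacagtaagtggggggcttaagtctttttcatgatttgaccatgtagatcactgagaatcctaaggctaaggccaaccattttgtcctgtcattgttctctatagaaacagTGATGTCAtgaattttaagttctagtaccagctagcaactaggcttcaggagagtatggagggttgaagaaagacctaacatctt
TGATGTCA stands 94 bases before the start of Tnp1 and 35 bases before that of Akap4, and TGACTTCA stands 64 bases before that of Prm1. A second Akap4 window, not shown, has TGATATCA 234 bases before its start. The match in Smcp stands 24 bases after the start. TGANNTCA occurred in the windows of 5 of the 9 genes (Tnp1, Prm1, Akap4, Smcp and Pgk2) and in those of 15.9% of all 27025 genes. The exact TGACGTCA occurred in none of the 9 genes and in 2.03% of all genes. Searched on both strands, TATAAA occurred in Prm2 alone among the 9 genes, and in 15.7% of all genes. A match says only that these letters are in the window.

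Library totals lay between 7207476 counts in KO2 and 15971900 in WT2, so that 3 counts, taken as the floor for a gene at 0, came to 0.188 to 0.416 CPM. Maf1 itself had 12.2, 12.1 and 22.9 CPM in Maf1-/- libraries, against 54.5, 70.1 and 67.6 CPM in wild-type libraries, so that it was lower in each library labelled as knockout (unadjusted p 2.25e-04). Across 16101 genes tested with edgeR's quasi-likelihood test, 0.0% passed an adjusted p of 0.05 (Maf1 had an adjusted p of 1.00). Without adjustment, 302 genes (1.88%) lay under a p of 0.05, 0.913% lower and 0.963% higher in Maf1-/- fat. This count was 652 when replicate numbers were blocked, and DESeq2 called 14 (0.0873%) after adjustment and the edgeR exact test called 4. The labelled tissue was checked with 12 adipocyte genes, which were counted in every library and summed to between 32580 and 49296 CPM.

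The transition proteins replace histones before the protamines arrive. Tnp1 had 0, 118 and 94 counts in Maf1-/- libraries KO1 to KO3, against 2, 2264 and 75 in wild-type libraries WT1 to WT3. In CPM these were 0, 16.4 and 7.18 in Maf1-/- fat, against 0.167, 142 and 5.95 in wild-type fat. WT2 held 82.7% of the summed CPM of Tnp1, KO1 and WT1 lay at or under the floor, and KO2 and KO3 lay between WT2 and WT3. Tnp2, its partner, gave 2, 100 and 77 counts in Maf1-/- libraries, against 0, 1895 and 81 in wild-type libraries. The order differed from that of Tnp1 in that WT3 had 6.43 CPM and KO3 5.88 CPM. The groups overlapped for both genes, and KO1 and WT1 had at most 2 counts of either.

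The protamines are the final packing proteins of sperm DNA. Prm1 had 0, 133 and 106 counts in the Maf1-/- libraries, against 0, 2214 and 104 in the wild-type libraries. It averaged 8.85 ± 9.25 CPM in Maf1-/- and 49.0 ± 77.8 CPM in wild-type fat (SD, n = 3 each), with an SD as large as the mean or larger in both groups. KO3 and WT3 were alike, at 8.10 and 8.25 CPM, KO2 lay above them at 18.5 CPM, and WT2 was far higher. Prm2, which is made as a longer precursor, was the most counted of the 9 genes in WT2. Its counts were 3, 372 and 317 in Maf1-/- fat, against 9, 3519 and 424 in wild-type fat. It thus still gave a few reads in KO1 and WT1, and the groups overlapped for both protamines.

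Prm1, Prm2 and Tnp2 lie side by side on chromosome 16 (mm9, 10788029 to 10796979), with Prm3 between Tnp2 and Prm2, all on the minus strand. Prm3, which encodes an acidic protein and not a packing protamine, had 0, 3 and 2 counts in Maf1-/- fat, against 0, 88 and 6 in wild-type fat. It too was highest in WT2, at a much lower level. The genes on either side did not share this order. Socs1, a suppressor of cytokine signalling, had 26, 57 and 40 counts in Maf1-/- fat, against 64, 39 and 41 in wild-type fat, and Gm10343 had at most 3 counts in any library.

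Flagellar structure was represented by Akap4, the main protein of the fibrous sheath, and by Odf1 and Odf2 of the outer dense fibres. Akap4 (chrX:6644645-6655735, plus strand) had 0, 68 and 94 counts in Maf1-/- fat, against 1, 1491 and 112 in wild-type fat. WT2 was 9.89-fold above the next library, KO2. Odf1 (chr15:38148958-38156490, plus strand) gave 3, 382 and 495 counts in Maf1-/- libraries, against 19, 1203 and 436 in wild-type libraries. Here WT2 stood less far apart: 53.0 CPM in KO2 and 37.8 CPM in KO3 compared with 75.3 CPM in WT2 and 34.6 CPM in WT3. Odf1 averaged 30.4 ± 27.2 CPM in Maf1-/- and 37.2 ± 36.9 CPM in wild-type mice (SD, n = 3 each).

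Odf2 was the exception among the 10 in having a high level everywhere. It had 800, 607 and 1267 counts in Maf1-/- libraries, against 739, 4543 and 1129 in wild-type libraries. This was 65.3, 84.2 and 96.8 CPM in Maf1-/- fat, against 61.5, 284 and 89.6 CPM in wild-type fat. The 5 libraries other than WT2 thus stayed within a narrow band, and WT2 lay 2.94-fold above the next. A U6 snRNA gene is annotated on the opposite strand within Odf2.

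Smcp had 0, 151 and 125 counts in the Maf1-/- libraries, against 50, 460 and 121 in the wild-type libraries. Of the 9 genes, Smcp had the most counts in WT1, where Prm1, Tnp2 and Ldhc were at 0, and WT2 exceeded KO2 by only 1.37-fold. Smcp made up 58.8% of the 85 reads of the 9 genes in WT1 (95% exact binomial interval 47.6 to 69.4%).

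The sperm-type glycolytic enzymes were Ldhc, the testis form of lactate dehydrogenase, and Pgk2, an intronless copy of phosphoglycerate kinase. Ldhc had 0, 88 and 94 counts in Maf1-/- fat, against 0, 1386 and 84 in wild-type fat. Pgk2 had 0, 38 and 91 counts in Maf1-/- fat, against 4, 475 and 97 in wild-type fat. For Ldhc the libraries other than WT2 reached at most 12.2 CPM, in KO2, while Pgk2 was the one of the 9 in which KO2 (5.27 CPM) lay below KO3 (6.95 CPM) and WT3 (7.69 CPM). The related genes of other tissues were counted in every library and in another order. Pgk1 had 81, 20 and 71 counts in Maf1-/- fat, against 83, 101 and 70 in wild-type fat, and Ldha had 5240, 1530 and 2169 counts in Maf1-/- fat, against 2648, 3764 and 3176 in wild-type fat. How reads that match several genes were counted is not given in the sources used here.

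**Figure D1:**
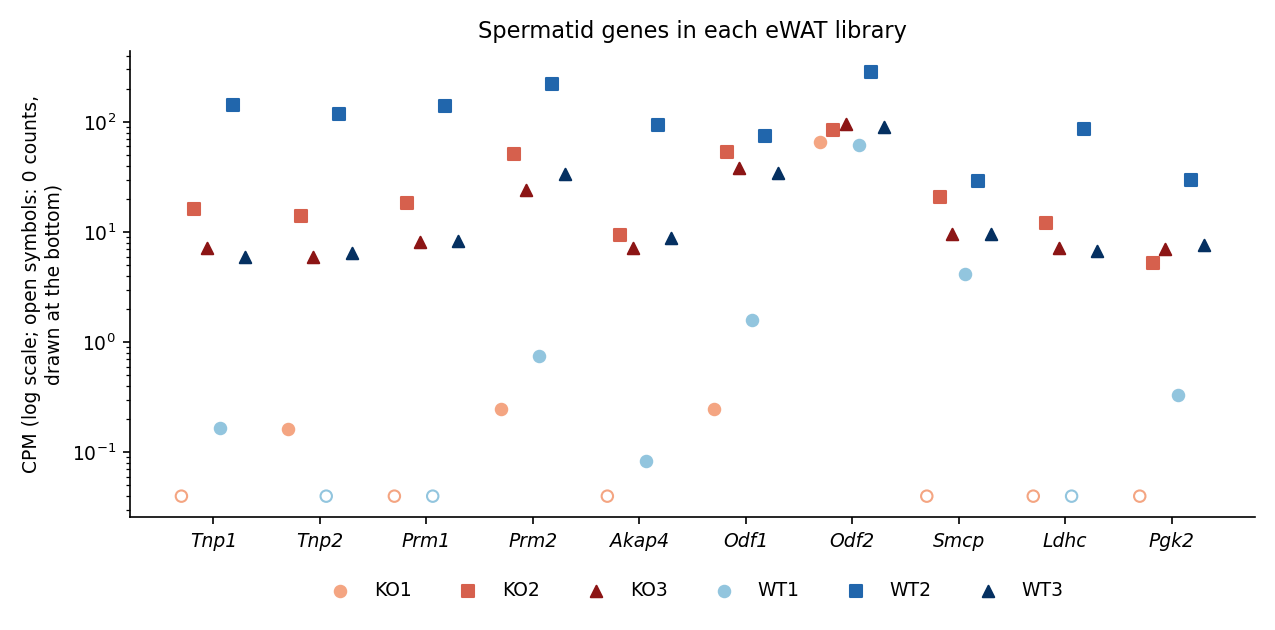
Level of each of the 10 spermatid genes in each eWAT library, in CPM on a log axis, with Maf1-/- libraries (red shades) left of wild-type libraries (blue shades) and open symbols at the bottom for 0 counts. WT2 is the highest point for each gene, KO1 and WT1 are the lowest, and Odf2 is the gene with a high level in every library.

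Counts per kilobase of annotated exon allow levels to be ordered between genes. In WT2 this RPKM was 357 for Prm2, 339 for Tnp1, 296 for Prm1 and 216 for Tnp2, followed by 68.2 for Odf1, 54.9 for Ldhc, 35.4 for Smcp, 30.8 for Akap4 and 18.7 for Pgk2. The nuclear packing genes led the order in WT2. In KO2 the order was Prm2 (83.5 RPKM), Odf1 (48.0), Prm1 (39.3) and Tnp1 (39.2), in KO3 Prm2 (39.2) and Odf1 (34.2), and in WT3 Prm2 (54.4) and Odf1 (31.3). Odf2 was left out of this order because its annotated exons add up to 9922 bases over many transcript forms.

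The fitted log2 fold change of Maf1-/- over wild-type was below 0 for all 10 genes, between -2.65 (SE 2.02) for Tnp2 and -0.29 (SE 1.54) for Odf1, with a median of -2.01. The median over the 16101 genes tested was 0.0078. Without WT2, 9 of the 10 genes had a value above 0, between 0.11 for Odf2 and 1.31 (Tnp1), and Pgk2 had -0.013, so that the median became 0.62. The wild-type group then held only WT3 and WT1, which had 85 counts of the 9 genes. With KO2 and WT2 both left out, the median was -0.023. Leaving out KO1 alone also turned the sign for Odf1 (0.29) and Smcp (0.087), while Pgk2 stayed below 0 without KO1 and without WT2. The sign of the median turned when WT2 was left out and with no other single omission. None of the 10 separated the genotypes, which 6.99% of all genes tested did.

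The 4 libraries with reads from these genes also differed in their make-up. In WT2, Tnp1, Tnp2 and Prm1 took 15.2, 12.7 and 14.9% of the reads of the 9 genes. Tnp1 took 8.14% in KO2 and 6.30% in KO3, against 4.89% in WT3, and Prm1 took 9.17% in KO2 and 7.10% in KO3, against 6.78% in WT3. Odf1 went the other way, with 26.3% in KO2 and 33.2% in KO3, against 8.07% in WT2 and 28.4% in WT3. Smcp likewise took 10.4% in KO2 and 8.37% in KO3, against 3.09% in WT2 and 7.89% in WT3.

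Ratios within a library do not depend on its depth. They are free of how much of this RNA it held only if all reads of both genes share a source. That was not tested, and in WT1 Smcp had 50 counts and Odf1 19 where Prm1 had 0. There were 2.80 reads of Prm2 per read of Prm1 in KO2 (95% interval 2.29 to 3.44) and 2.99 in KO3 (2.39 to 3.76), against 1.59 in WT2 (1.51 to 1.68) and 4.08 in WT3 (3.28 to 5.10). The interval of WT2 did not meet those of the other 3 libraries. The contrast was larger for Odf1 over Prm1, with 2.87 in KO2 and 4.67 in KO3, against 0.543 in WT2 and 4.19 in WT3. It was also seen for Smcp over Prm1, with 1.14 in KO2 and 1.18 in KO3, against 0.208 in WT2 and 1.16 in WT3. By contrast, Tnp1 over Tnp2 was 1.18 in KO2 (0.896 to 1.56) and 1.22 in KO3 (0.894 to 1.67), against 1.19 in WT2 (1.12 to 1.27) and 0.926 in WT3 (0.667 to 1.28). These intervals all overlapped, and they cover counting error only. WT2 thus held relatively more of the transition proteins and Prm1, and KO2, KO3 and WT3 held relatively more Odf1 and Smcp.

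**Figure D2:**
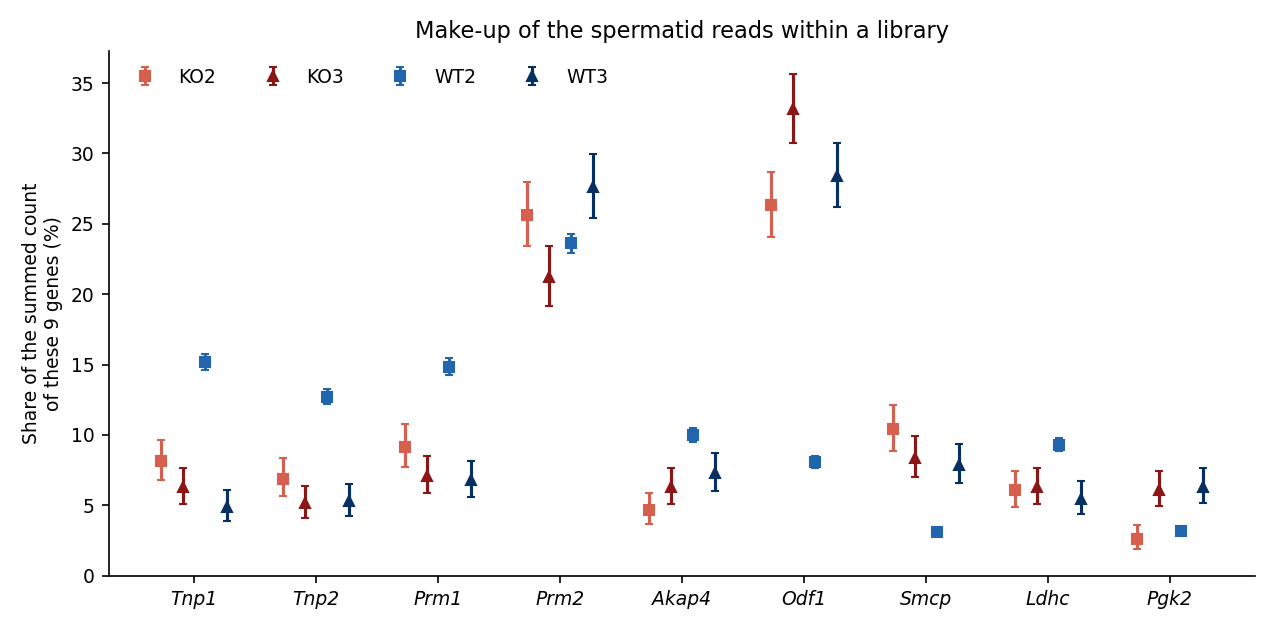
Share of each gene in the summed count of the 9 spermatid genes other than Odf2, in percent, for the 4 libraries that had all 9 genes, with KO2 and KO3 left of WT2 and WT3. Points are the shares and bars the 95% exact binomial intervals; WT2 is above the other libraries for Tnp1, Tnp2, Prm1, Akap4 and Ldhc and below them for Odf1 and Smcp.

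A wider list held 77 other spermatid genes in 5 groups, most of which were also highest in WT2 where they passed the filter. Of these, 49 passed the filter on low counts and 28 did not. Of the 49, 46 (93.9%) were highest in WT2, against 15.8% of all genes tested, and WT2 held over 50% of the summed CPM in 32 of them (65.3%), against 2.19% of all genes tested. The libraries below WT2 were placed differently, with a median KO2 over KO3 ratio of 1.04, against 2.13 for the 9 genes. The filter needed counts in several libraries, so genes counted almost only in WT2 were left out. Hils1, with 339 counts in WT2 and at most 9 in any other library, was 1 of them. The list was chosen with these data known, so these shares are descriptions. Over 3 counts were seen for 33, 54 and 66 of the 77 in Maf1-/- libraries, against 31, 76 and 65 in wild-type libraries. Over all 28529 genes these numbers were 17831, 17862 and 18597, against 16986, 19987 and 18294, so WT2, the deepest library, led there too. None of the 49 passed an adjusted p of 0.05 in edgeR's quasi-likelihood test. Before adjustment, 3 of the 49 (Chd5, Brdt and Izumo1) lay under a p of 0.05, all lower in Maf1-/- fat. Of all genes tested, 0.913% did so, but this list was chosen with these data known, so no excess is read from it. Without WT2 the unadjusted p in that test was 0.36 for Chd5, 0.21 for Brdt and 0.041 for Izumo1. The median log2 fold change of the 49 was -1.60 with all libraries and 0.18 without WT2. With all libraries 45 of 49 were below 0, against 17 of 49 without WT2.

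Among the nuclear genes, H1fnt, a spermatid linker histone, had 0.490, 3.47 and 2.44 CPM in Maf1-/- fat, against 0, 33.9 and 1.51 CPM in wild-type fat. Chd5, a chromatin remodeller of the histone exchange, had 2.12, 1.94 and 3.36 CPM in Maf1-/- fat, against 3.75, 33.2 and 3.17 CPM in wild-type fat (log2 fold change -2.36, SE 0.95). Tssk6, a kinase of spermatid nuclei, had 0.572, 6.10 and 5.73 CPM in Maf1-/- fat, against 0, 20.4 and 4.76 CPM in wild-type fat. WT2 was the outlying library each time, but Chd5 lacked the step from KO1 and WT1 up to the middle libraries. Brdt, a bromodomain protein of the testis, had 2.29, 3.05 and 2.60 CPM in Maf1-/- fat, against 3.58, 12.1 and 4.44 CPM in wild-type fat. Its groups did not overlap, and 4.87% of all genes tested likewise lay wholly lower in Maf1-/- fat.

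Of the acrosome list, Crisp2, an acrosomal and tail protein, was nearest to the group, with 0.0817, 19.1 and 17.3 CPM in Maf1-/- fat, against 0.4996, 81.0 and 18.2 CPM in wild-type fat. Spata16, needed for acrosome formation, had 0, 1.66 and 1.60 CPM in Maf1-/- fat, against 0, 12.5 and 1.03 CPM in wild-type fat. Both were near 0 in KO1 and WT1 and highest in WT2. Acrbp, the binding partner of proacrosin, had 3.18, 9.71 and 10.7 CPM in Maf1-/- fat, against 8.41, 15.3 and 7.38 CPM in wild-type fat. Spaca1, a protein of the acrosomal membrane, had 2.61, 2.36 and 1.30 CPM in Maf1-/- fat, against 1.42, 8.14 and 5.08 CPM in wild-type fat, so its groups overlapped. Izumo1, the sperm protein of egg fusion, is added here after its values were seen: it had 0.327, 0.277 and 0.611 CPM in Maf1-/- fat, against 1.83, 4.19 and 1.35 CPM in wild-type fat. Its groups did not overlap (log2 fold change -2.51, SE 0.65, unadjusted p 0.00696 and adjusted p 1.00 in the edgeR quasi-likelihood test), and 4.87% of all genes tested lay wholly lower in Maf1-/- fat.

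The tail list had the highest summed level of the 5 groups in WT2, with 20.3, 81.6 and 75.0 CPM in Maf1-/- fat, against 19.3, 475 and 77.1 CPM in wild-type fat. Tcp11, a testis protein linked to sperm motility, had 0.817, 9.57 and 14.1 CPM in Maf1-/- fat, against 0.4996, 104 and 15.6 CPM in wild-type fat. Meig1, needed to build the manchette and tail, had 1.14, 10.4 and 4.97 CPM in Maf1-/- fat, against 0.0833, 57.4 and 5.08 CPM in wild-type fat. Both were highest in WT2 and low in KO1 and WT1, but KO2 lay below KO3 and WT3 for Tcp11 and above them for Meig1. Spata18 gave 31.9 CPM in WT2 and between 1.14 and 9.76 CPM elsewhere. Catsper2, a subunit of the sperm calcium channel, was counted in every library, with 6.04, 11.2 and 11.995 CPM in Maf1-/- fat, against 8.99, 18.5 and 8.01 CPM in wild-type fat.

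In the metabolic list, Gapdhs, the sperm form of glyceraldehyde phosphate dehydrogenase, had 0.0817, 3.33 and 3.74 CPM in Maf1-/- fat, against 0.167, 33.0 and 3.57 CPM in wild-type fat. Gk2, a testis glycerol kinase, reached 16.1 CPM in WT2 and at most 2.36 CPM in any other library. Adcy10, the soluble adenylyl cyclase, and Atp1a4, the sperm sodium pump, reached 23.8 and 33.4 CPM in WT2, and their next highest libraries were KO3 (3.44 CPM) and KO2 (7.49 CPM). All 9 tested genes of this list were highest in WT2.

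The regulators were more mixed, with 9 of 12 highest in WT2. Ybx2, an RNA-binding protein that stores protamine messages, had 2.94, 5.55 and 4.36 CPM in Maf1-/- fat, against 0.749, 36.9 and 2.94 CPM in wild-type fat. Crem had 18.5, 83.5 and 20.1 CPM in Maf1-/- fat, against 30.6, 26.0 and 17.7 CPM in wild-type fat, so that KO2 led and WT2 did not. This gene also makes a repressor form in other cells, and counts per gene do not tell the forms apart. Tbpl1 (13.5 to 26.4 CPM) and Rfx2 (6.24 to 21.4 CPM) were counted in every library, with WT2 highest for Rfx2 and KO3 highest for Tbpl1.

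By the whole profile over the 6 libraries, the nearest gene outside the group was Crisp2. Likeness was the root mean square difference between the centred log2(CPM + 0.5) profile of a gene and the mean profile of the 9 genes, over 16393 other genes with at least 60 counts in sum. It was 0.336 for Crisp2, 0.446 for Spz1, a testis transcription factor, and 0.452 for Dbil5, a relative of the acyl-CoA-binding protein made in spermatids. Next came 4931407G18Rik, Heatr7b2, Tcp11, Spata20, Atp8b3, Gsg1 and Fhl4, from 0.589 to 0.677. Spz1 had 0, 46 and 66 counts in Maf1-/- fat, against 4, 792 and 100 in wild-type fat. Of the 100 nearest genes, 14 came from the 67 eligible genes of the other spermatid lists, 1 from 18 spermatocyte genes, 1 from 4 spermatogonia genes (Dmrtb1), 1 from 19 epididymis genes and 83 from no list. Among the 10 themselves, Ldhc (0.292) and Akap4 (0.321) lay nearest to the mean profile. Smcp (1.15) lay farther from it than 127 genes outside the group did, and Odf2 (1.93) farther than 1562.

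Other cells of the male tract were looked at beside this pattern, and their part in it was not tested. Spermatocytes, the meiotic cells before the spermatid, were read through 25 genes, whose summed level was 47.4, 107 and 75.6 CPM in Maf1-/- fat, against 39.5, 267 and 67.1 CPM in wild-type fat. WT2 had over 3 counts for 25 of the 25, and the other libraries for 12 to 18. Over all 28529 genes, WT2 had over 3 counts for 19987 and the other libraries for 16986 to 18597. Hspa2, the heat shock protein of meiosis, had 15.6, 45.1 and 30.9 CPM in Maf1-/- fat, against 12.6, 83.1 and 24.9 CPM in wild-type fat. Mael, a protein of the piRNA pathway, had 0.245, 2.64 and 3.51 CPM in Maf1-/- fat, against 0.416, 40.9 and 2.78 CPM in wild-type fat. Both repeated the peak in WT2, whereas Prdm9 lay between 8.02 and 13.3 CPM with WT1 highest. Of 14 tested spermatocyte genes, 11 were highest in WT2, the median log2 fold change was -0.42 (0.45 without WT2), and none passed an adjusted p of 0.05.

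For spermatogonia, 14 genes summed to 150, 108 and 163 CPM in Maf1-/- fat, against 140, 219 and 138 CPM in wild-type fat, most of it from Zbtb16, which adipose tissue also expresses (84.2 to 144 CPM). Gfra1, the receptor subunit for GDNF, had 5.63, 17.8 and 48.7 CPM in Maf1-/- fat, against 1.75, 52.3 and 22.1 CPM in wild-type fat. Dmrtb1 reached 14.5 CPM in WT2 and at most 4.43 CPM elsewhere. The 10 Sertoli cell genes summed to between 6.11 and 10.4 CPM, led by Dhh (3.57 to 5.27 CPM) and Aard (1.67 to 4.16 CPM), with Amh at 0.238 to 0.916 CPM. WT2 had over 3 counts for 8 of these 10 genes, and the other libraries for 3 to 5. Cst9 and Cst12, named after their values were seen, had 11 and 10 counts in WT2, the deepest library, and 0 in the other 5 libraries. Of the 2 Sertoli cell genes that passed the filter, 0 were highest in WT2, and WT1 (9.91 CPM) nearly matched WT2 in the sum. Of the Leydig cell genes, Cyp17a1, an enzyme of androgen synthesis, had 0.327, 51.8 and 55.5 CPM in Maf1-/- fat, against 0.749, 23.1 and 47.2 CPM in wild-type fat. It was thus near 0 in the same libraries as the protamines, but WT2 was the lowest of the other 4. Star (3.16 to 7.07 CPM) and Cyp11a1 (0.250 to 1.94 CPM) lay highest in WT2. All 8 Leydig cell genes had over 3 counts in WT2, the deepest library, and 3 to 5 of them in the other libraries.

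Epididymis genes shared the low libraries, but their sum did not peak in WT2. The 24 genes summed to 836, 6629 and 9207 CPM in Maf1-/- fat, against 100.5, 7404 and 4292 CPM in wild-type fat, so KO3 was highest. Crisp1, a secreted protein of the epididymis, had 716, 4325 and 3340 CPM in Maf1-/- fat, against 8.33, 1591 and 2818 CPM in wild-type fat. Adam7 had 0.163, 912 and 1670 CPM in Maf1-/- fat, against 1.58, 1185 and 851 CPM in wild-type fat. Lcn5, the retinoic acid carrier of the epididymal lumen, had 0, 86.9 and 1643 CPM in Maf1-/- fat, against 1.58, 2104 and 22.9 CPM in wild-type fat. Even these leading genes differed in which library was highest. Of the 17 tested, 6 (35.3%) were highest in WT2, against 15.8% of all genes tested. In log2 fold change 12 of the 17 lay above 0, against 8224 of all 16101 genes tested. Without WT2, 16 of the 17 lay above 0, against 8891 of 16578. None of the 17 passed an adjusted p of 0.05. Set against 1000 CPM of the epididymis list, the 9 spermatid genes gave 0.782, 30.3 and 12.4 CPM in Maf1-/- fat, against 70.4, 126 and 28.4 CPM in wild-type fat, so the ratio of the sets was not fixed. The KO1 value rests on 8 counts of the 9 genes and the WT1 value on 85, of which 50 were Smcp.

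KO1 differed from WT1 in holding seminal vesicle transcripts. The 7 genes of that list summed to 25.9, 12.5 and 2.29 CPM in Maf1-/- fat, against 0, 1.94 and 2.14 CPM in wild-type fat. Svs4, a seminal vesicle secretory protein, had 103, 28 and 0 counts in Maf1-/- fat, against 0 in each of the 3 wild-type libraries. Svs5 had 7.92, 0.416 and 0 CPM in Maf1-/- fat, against 0, 0.0626 and 0 CPM in wild-type fat, and Pate4 was highest in KO2 (8.05 CPM). The libraries with the least spermatid RNA were thus not alike in this list.

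The adipocyte genes did not follow the spermatid genes. Car3, a carbonic anhydrase of fat, was highest in KO1 (19365 CPM), and Fabp4, a fatty acid carrier, and Cfd, the adipokine adipsin, were highest in KO2. None of the 12 was highest in WT2, their median log2 fold change was -0.29 (-0.34 without WT2), and none passed an adjusted p of 0.05.

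**Figure D3:**
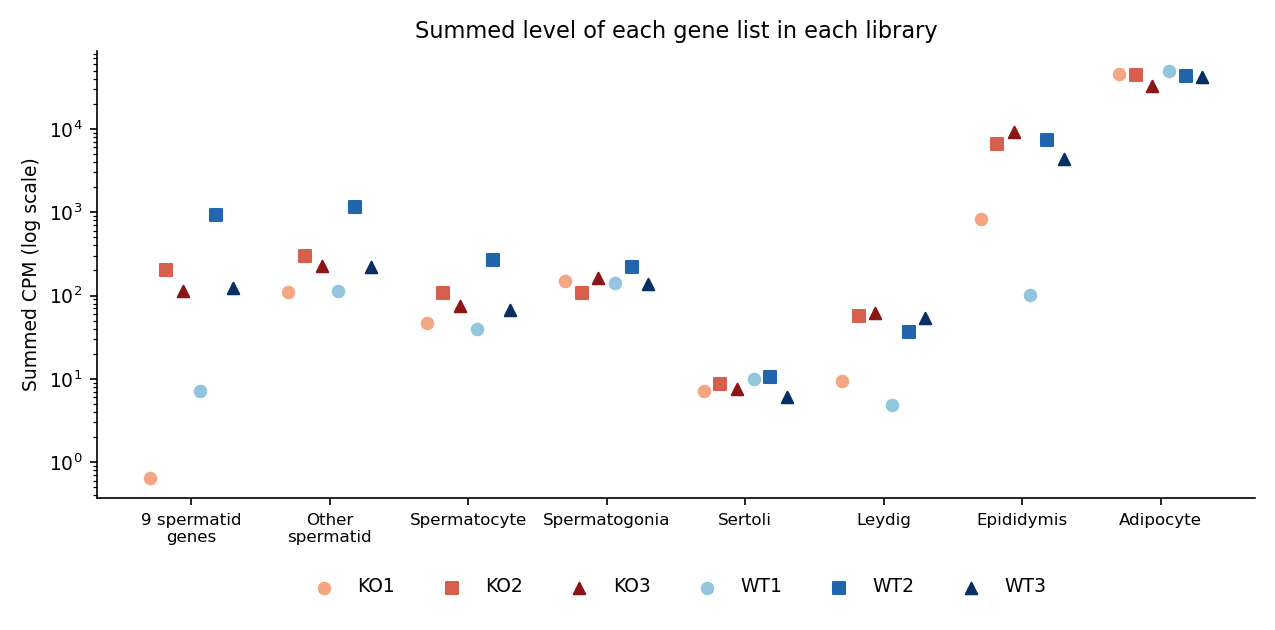
Summed CPM of 8 gene lists in each eWAT library on a log axis, with KO1, KO2 and KO3 left of WT1, WT2 and WT3. The spermatid, spermatocyte, spermatogonia and Sertoli lists peak in WT2, with WT1 close behind for the Sertoli list. The Leydig and epididymis lists peak in KO3 (9207 CPM for the epididymis list), and the adipocyte list stays between 32580 and 49296 CPM.

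**Figure D4:**
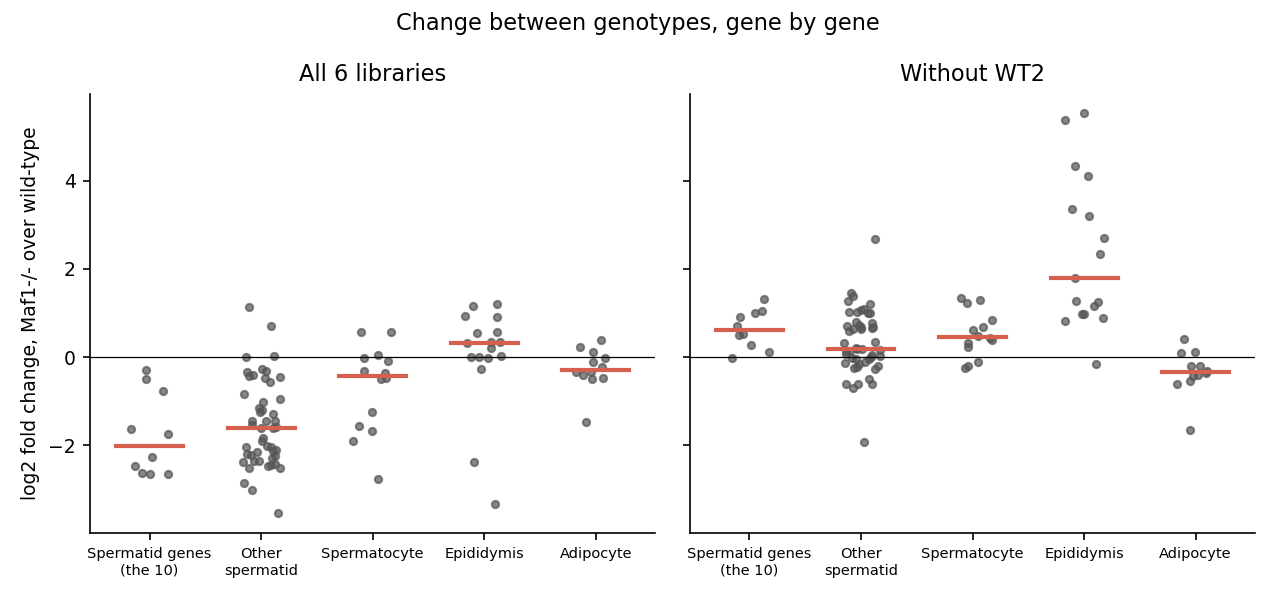
Log2 fold change of Maf1-/- over wild-type for each gene that passed the filter, by list, fitted on all 6 libraries (left) and without WT2 (right); bars are medians. The median of the 10 spermatid genes is -2.01 on the left and 0.62 on the right, and that of the 12 adipocyte genes is -0.29 and -0.34.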

How the data were processed

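RNA of eWAT was sequenced with a directional protocol after removal of ribosomal RNA, 1 library per mouse. Per the labels, reads were aligned to mm9 with GSNAP and counted per gene with HTSeq. The expected count columns deposited by the authors hold whole numbers for each gene; the closing lines of the table (library totals and factors) were dropped. The deposited 6 columns of normalized counts and the authors' edgeR columns (fold changes and p-values) were not used. How HTSeq handled strand and shared reads is not given in the sources used here. Sept12, whose symbol cell holds a number, was matched by gene ID.

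CPM were scaled by library size. After filterByExpr and TMM scaling, edgeR 4.0.16 (R 4.3.3) was run with its quasi-likelihood test on genotype alone, with Benjamini-Hochberg adjustment over 16101 genes and a threshold of 0.05. The fit was tested on simulated data. RLE factors, library size alone, no filter, DESeq2 1.42.0, the edgeR exact test, the replicate block and leaving out libraries were tried as alternatives. Dropping replicates KO1 with WT1 and KO2 with WT2 was added after seeing the data. Shares carry exact Clopper-Pearson intervals of 95%, and a gene at 0 has a floor of 3 counts. These cover counting error only. Further steps used Python 3.11.15, with pandas 2.3.3, numpy 2.4.6, scipy 1.17.1 and matplotlib 3.10.9.

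Libraries of the same replicate number correlated in their residuals (KO1 with WT1 0.66, KO2 with WT2 0.36, KO3 with WT3 0.34), each above a limit of 0.1. KO3 with WT2 (0.47) and KO2 with WT3 (0.29) passed this limit too, so it does not single out pairs by number. The labels give replicate numbers only, and the block on them is an alternative setting. The mice are separate animals with 1 library each. The p-values thus rest on the spread between mice, which cannot be told apart from that of dissection and library preparation. The 10 genes and the 181 genes of the other lists, of which 177 were in the table, were chosen with earlier results of these data known. Besides the 10 and Maf1, the text names the 4 genes of highest mean CPM of each spermatid list, the 3 highest of each other list, the 10 nearest profiles and the neighbours of Prm1, Prm2 and Tnp2. Izumo1, Pgk1, Ldha, Cst9 and Cst12 were added after their values were seen.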

Additional observations from a re-analysis of the deposited data

How the results depend on the processing

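For the 10 spermatid genes the median log2 fold change of Maf1-/- over wild-type was -2.01, and leaving out 1 library at a time gave -2.92 to 0.62. With the replicate numbers as a block it was -1.44. The block changed no adjusted call. Of the 77 other spermatid genes, the 49 that passed the filter had a median of -1.60. With no filter on low counts the median was -2.13. Over single omissions it was -2.46 to 0.18, where 0.18 is the value without WT2. Without KO2 and WT2 it was -0.013. The spermatocyte median was -0.42, -1.53 with no filter on low counts, and -0.78 to 0.45 over single omissions. The single omissions gave -0.58 to 1.78 for epididymis genes and -0.57 to -0.070 for adipocyte genes. The cause of these shifts was not tested. Adjusted calls numbered 0 in the quasi-likelihood fit, 14 by DESeq2, 4 by the edgeR exact test, and 0 to 0 over single omissions. None of them was one of the 10 genes or a gene of the other lists. Genes at an unadjusted p under 0.05 numbered 302, and 650 with no filter, 461 by DESeq2, 652 with the replicate block, and 152 to 773 over single omissions (773 without KO1, 650 without KO3, 152 without KO2, 177 without WT3). They numbered 764 without KO1 and WT1 and 166 without KO2 and WT2. With a pseudocount of 5 CPM, 6 of the 10 nearest genes were shared. In KO1 and WT1, counts at or under 3 lay at or under the floor, and a gene at 0 there was not detectable rather than absent. These libraries were not shallow, with totals of 12247202 (KO1) and 12010807 (WT1). KO2, at 7207476, had at least 38 counts of each of the 9 genes other than Odf2.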
